A study of Mus musculus with 4 samples.

Results

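The 10 genes described here encode the central proteins of necroptosis and pyroptosis, the lytic forms of programmed cell death, and were read from bulk RNA-seq of septic mouse kidney and heart. They were taken by symbol: Ripk1, Ripk3 and Mlkl for necroptosis, Nlrp3, Pycard, Casp1, Casp4 and Gsdmd for pyroptosis, and Casp8 and Fadd, which stand between necroptosis and apoptosis. All 10 were found among the 55401 genes of the count files. Sepsis was induced by cecal ligation and puncture (CLP), which lets gut bacteria leak into the abdomen, in C57BL/6 mice. The CLP group had the operation alone, and the CLP + MLT group had the operation and melatonin (MLT), the pineal hormone, so that every library came from an operated animal and sham animals were not used here. For the kidneys, the study's methods describe male mice of 8 weeks, given melatonin at 25 μg/ml in drinking water with 0.1% ethanol for 14 days, operated on day 15 and killed for kidney collection after 24 h. The heart labels name the treatments but no dose, age or time, and the names of both melatonin libraries carry a 4 that the sources used here do not explain.

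Each of the 4 groups was 1 library, and whether that was 1 mouse or a pool of mice is not stated. No difference below could therefore be set against the spread between mice, and no p-value is given. The intervals in brackets are 95% intervals for counting error only, exact except for differences between the ratios of the tissues, where they are approximate. Reads copied by PCR are counted as if they were separate molecules, so the intervals can be too narrow even for counting error.

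Necroptosis starts when a death receptor or a nucleic acid sensor brings together the kinases RIPK1 and RIPK3. RIPK3 then phosphorylates MLKL, which inserts into the plasma membrane and breaks it. Caspase-8, recruited by the adaptor FADD, cleaves the RIP kinases and holds this route back, so the same complex can end in survival, apoptosis or necroptosis. Pyroptosis starts in an inflammasome, where a sensor such as NLRP3 uses the adaptor ASC (the product of Pycard) to activate caspase-1, or when caspase-11, the product of mouse Casp4, binds bacterial lipopolysaccharide in the cytosol. Both caspases cut gasdermin D, whose freed fragment forms the membrane pore through which interleukin-1β leaves the cell. In sepsis these routes are studied in immune cells, in endothelium and in the tubular epithelium of the kidney.

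Between 15883057 and 22927905 reads were counted on genes in a library. The share on mitochondrial genes was 14.8% in the CLP and 24.2% in the CLP + MLT kidney library, and 31.6% and 36.0% in the hearts. Reads without a unique place made up 23.6% and 32.6% of all reads in the kidneys and 38.6% and 37.0% in the hearts. In kidney both shares moved with the treatment, and their part in the results was not tested. Of 11 markers of kidney epithelium none was at 0 in the kidney libraries, where they summed to 7830 CPM, counts scaled to a common library size, without melatonin and 8530 with it. The 10 cardiomyocyte markers summed to 37500 and 26400 CPM in the heart libraries, where Myl7 was at 0 in the CLP + MLT library. The kidney markers also gave 173 and 302 CPM in the hearts, and the cardiomyocyte markers 12.2 and 18.4 CPM in the kidneys.

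Promoter sequences from RefSeq (GRCm38.p6) were matched for 9 of the 10 genes, with no entry for Gsdmd. The 250 bases before the start site are shown for Casp1 and Ripk3, which of the members past the filter on low counts had the largest difference between treatments in kidney and in heart, and for Casp4, the neighbour of Casp1. Capitals mark the E-box CACGTG, which is its own reverse complement, in the first pair, and matches to the NF-kB consensus on either strand in Casp4. Ripk3 is at chr14:55788858-55789107 on the minus strand, Casp1 at chr9:5298267-5298516 and Casp4 at chr9:5308599-5308848, both on the plus strand.
Ripk3: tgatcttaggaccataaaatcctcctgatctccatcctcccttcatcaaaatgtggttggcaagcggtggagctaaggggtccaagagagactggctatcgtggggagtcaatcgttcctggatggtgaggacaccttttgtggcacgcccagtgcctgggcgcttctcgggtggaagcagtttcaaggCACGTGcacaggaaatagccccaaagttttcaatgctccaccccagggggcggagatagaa
Casp1: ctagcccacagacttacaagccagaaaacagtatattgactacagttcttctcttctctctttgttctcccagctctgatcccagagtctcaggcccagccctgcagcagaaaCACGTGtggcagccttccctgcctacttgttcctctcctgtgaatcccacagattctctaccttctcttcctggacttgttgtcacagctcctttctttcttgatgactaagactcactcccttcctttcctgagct
Casp4: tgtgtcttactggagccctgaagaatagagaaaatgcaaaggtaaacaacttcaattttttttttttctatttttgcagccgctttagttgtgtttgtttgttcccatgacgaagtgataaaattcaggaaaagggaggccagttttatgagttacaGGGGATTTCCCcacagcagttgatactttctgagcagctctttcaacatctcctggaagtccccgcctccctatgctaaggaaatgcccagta

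The E-box lay 61 to 56 bases before the start of Ripk3 and 137 to 132 bases before that of Casp1. It was in 2 of the 9 promoters, against 6.02% of the 32851 promoters in the table. The capitals of Casp4 hold a pair of overlapping matches to the NF-kB consensus, 93 to 83 bases before the start. That consensus was in 2 of the 9, Casp4 and Nlrp3, against 3.90% of all promoters. The GC box GGGCGG was in 3 of the 9 (Ripk1, Ripk3 and Fadd) against 32.7%, and no member held the TATA box TATAAA (12.4%), the interferon-stimulated element GAAANNGAAA (2.98%) or the interferon-gamma site TTCNNNGAA (7.02%), each searched on both strands. Ripk1 and Fadd had 19 CG dinucleotides each in this window, where the median promoter had 6, while Casp1 had 1 and Pycard 2. These motifs were picked after the values were seen, and a match describes letters, not binding.

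The members were spread over a wide range of levels, and the order differed between the tissues. Levels between genes are given as RPKM, the CPM per kilobase of exon, after scaling of all 4 libraries together. In the CLP kidney library Casp8 stood highest at 15.9 RPKM, followed by Pycard at 4.46, Fadd at 2.75, Ripk1 at 2.61 and Gsdmd at 2.36. Well under these came Casp4 at 0.952, Mlkl at 0.838, Casp1 at 0.584, Ripk3 at 0.429 and Nlrp3 at 0.0539. The counting intervals of neighbours overlapped from Fadd through Gsdmd and from Casp4 through Ripk3, so the order of neighbours there was not resolved. Those of Casp4 (0.772 to 1.16) and Mlkl (0.628 to 1.1) did lie above that of Ripk3 (0.283 to 0.624). In the CLP + MLT kidney library Casp8 (12.5 RPKM), Pycard (5.06), Ripk3 (0.632) and Nlrp3 (0.0143) kept their ranks. Gsdmd, at 3.07, stood above Fadd and Ripk1, with an interval that overlapped those of both.

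In the CLP heart library Gsdmd led with 26.9 RPKM, ahead of Casp8 with 11.4 and Casp1 with 6.14. The next ones, Casp4 at 5.05, Ripk3 at 5.04 and Mlkl at 4.73, had overlapping intervals with each other, and that of Casp1 overlapped that of Casp4. Ripk1 followed at 3.59, Pycard at 1.58, Fadd at 0.831 and Nlrp3 at 0.10. In the CLP + MLT heart library Gsdmd (28.4), Casp8 (14.2) and Casp1 (7.0) were again the first ones, and Ripk3 (6.93) now stood above Casp4 (4.79) with no overlap of their intervals. Among all genes with at least 10 counts in a library, Gsdmd was at percentile 91.3 of RPKM in the CLP heart and 43.1 in the CLP kidney, and Ripk3 at 58.4 and 12.9.

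**Figure D1:**
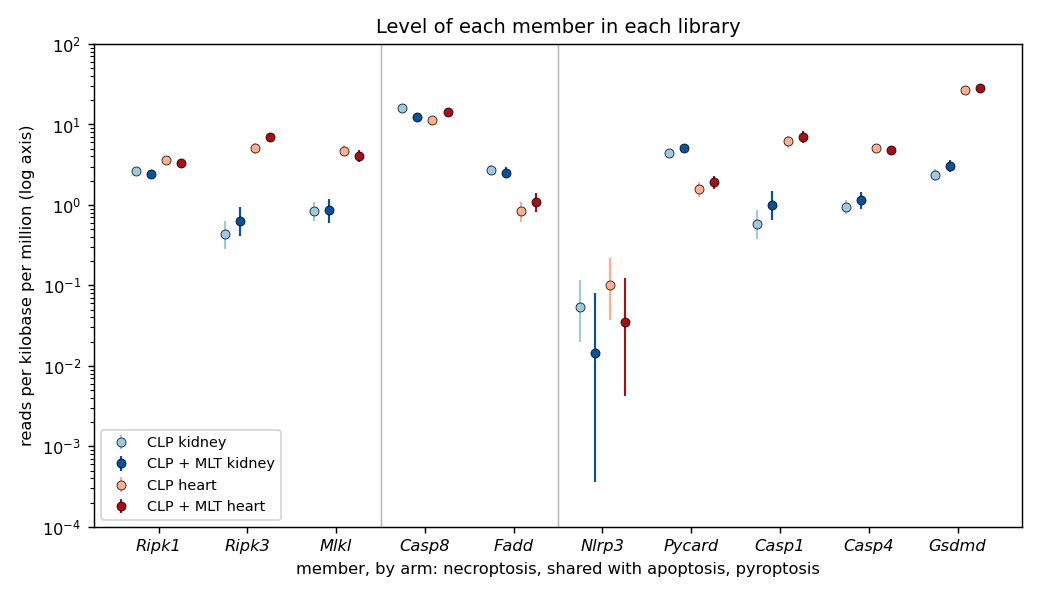
Level of each of the 10 genes in each of the 4 libraries, in RPKM on a log axis, with 95% counting intervals as bars; grey lines part the necroptosis genes, the genes shared with apoptosis and the pyroptosis genes. Gsdmd runs from 2.36 in the CLP kidney library to 28.4 in the CLP + MLT heart library, and Nlrp3 lies lowest in all 4.

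Among the kinases, Ripk1 (ENSMUSG00000021408.15, chromosome 13 from 34002363 to 34037147), the scaffold that also carries survival signals, had 597 counts in the CLP kidney library and 347 in the CLP + MLT kidney library. With the 2 libraries of the tissue scaled by the TMM method, CLP + MLT stood over CLP by a log2 ratio of −0.11 (−0.31 to 0.08). In heart it had 443 and 394 counts and a log2 ratio of −0.16 (−0.36 to 0.04). Both intervals stayed inside 1.5-fold. Ripk1 shares 241 exon bases with Serpinb6a on the opposite strand, 2.89% of its exon length, and the library kit does not mark strand. It also shares 511 exon bases, 6.12%, with the pseudogene Gm17084 on the same strand, which had 0 counts in all 4 libraries. Reads of that pair cannot be told apart where they overlap.

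Ripk3 (ENSMUSG00000022221.14, chromosome 14 from 55784995 to 55788865), the kinase that commits a cell to necroptosis, was near the lower end in kidney, with 27 counts for CLP and 25 for CLP + MLT. Its log2 ratio there was 0.55 with an interval from −0.28 to 1.40, an interval that holds both no difference and 2-fold. In heart it had 171 and 226 counts and a log2 ratio of 0.41 (0.12 to 0.71). The heart interval lay above 0 but its lower end was under 1.5-fold. The heart library with melatonin was thus the highest of the 4 for Ripk3, at 15.9 CPM, and the kidney libraries, at 0.983 and 1.45 CPM, had overlapping intervals.

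Mlkl (ENSMUSG00000012519.14, chromosome 8 from 111311797 to 111338177), which forms the pore of necroptosis, had 53 and 34 counts in the kidney libraries and 161 and 132 in the heart libraries. The log2 ratio was 0.031 (−0.63 to 0.68) in kidney and −0.28 (−0.62 to 0.06) in heart, and both intervals included 0. In heart Mlkl was lower and Ripk3 higher in the melatonin library, so the count of Mlkl per count of Ripk3, per length, was 0.937 without melatonin and 0.581 with it.

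Casp8 (ENSMUSG00000026029.14, chromosome 1 from 58795374 to 58847503) encodes the protease that restrains RIPK3 and carries death receptor apoptosis. It had the highest counts of the members in kidney, 1265 without melatonin and 623 with it, and a log2 ratio of −0.35 (−0.49 to −0.21). In heart it had 487 and 583 counts and a log2 ratio of 0.27 (0.09 to 0.45). Casp8 was the only member whose interval excluded 0 in both tissues, below 0 in kidney and above 0 in heart, and in each it stayed inside 1.5-fold. Counting intervals narrow as counts rise, and the share of all genes with intervals on opposite sides of 0 was not counted. The heart ratio minus the kidney ratio was 0.62 (0.40 to 0.84), from counting error alone.

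Fadd (ENSMUSG00000031077.7, chromosome 7 from 144577318 to 144582463), the adaptor between death receptors and caspase-8, had the same pair of signs. It had 295 and 169 counts in kidney, with a log2 ratio of −0.13 (−0.41 to 0.15), and 48 and 60 in heart, with 0.33 (−0.24 to 0.91). Its heart ratio minus its kidney ratio was 0.46 (−0.15 to 1.07), an interval that included 0. The antisense gene Faddos, which shares 239 exon bases with Fadd, had 34 and 17 counts in kidney and 5 and 7 in heart, and reads of the pair cannot be told apart where they overlap. Per length, Casp8 stood 5.79 times as high as Fadd in the CLP kidney library and 4.97 times in the CLP + MLT kidney library, against 13.7 and 13.1 times in the hearts.

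The inflammasome sensor Nlrp3 (ENSMUSG00000032691.14, chromosome 11 from 59541568 to 59566956) was close to absent at this depth. It had 6 counts in the CLP library of each tissue, 1 in the CLP + MLT kidney and 2 in the CLP + MLT heart. It was the member that failed the minimum of 10 counts on average in both tissues. Its log2 ratios had intervals of −7.44 to 1.13 in kidney and −4.92 to 0.91 in heart, too wide to give a direction.

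Pycard (ENSMUSG00000030793.4, chromosome 7 from 127989708 to 127993867) encodes the ASC adaptor, which links the sensor to caspase-1. It had 465 and 332 counts in kidney and 89 and 103 in heart. The log2 ratios, 0.19 (−0.02 to 0.39) and 0.22 (−0.20 to 0.65), were alike in size and both intervals included 0. The gene model Gm45205 on the opposite strand shares 485 of its exon bases, 12.8% of its length, and had 166 and 79 counts in kidney and 30 and 56 in heart, which makes the counts of Pycard uncertain.

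Casp1 (ENSMUSG00000025888.6, chromosome 9 from 5298517 to 5307265) encodes caspase-1, which matures interleukin-1β and cuts gasdermin D. It had 24 and 26 counts in kidney, and its log2 ratio of 0.77 was the largest of the members there, with an interval from −0.07 to 1.65. In heart, with 136 and 149 counts, the log2 ratio was 0.14 (−0.20 to 0.49). Casp4 (ENSMUSG00000033538.13, chromosome 9 from 5308828 to 5336783), which encodes the sensor of cytosolic lipopolysaccharide, begins 1562 bases after the end of Casp1 on the same strand. It had 97 and 73 counts in kidney, a log2 ratio of 0.26 (−0.20 to 0.71), and 277 and 253 in heart, a ratio of −0.12 (−0.37 to 0.13). Every one of these intervals included 0.

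Gsdmd (ENSMUSG00000022575.5, chromosome 15 from 75862327 to 75867408), which encodes the pore itself, had 154 and 126 counts in kidney and a log2 ratio of 0.38 (0.03 to 0.73). This interval lay above 0 but reached from nearly no difference to beyond 1.5-fold. In heart it had 945 and 961 counts and a log2 ratio of 0.034 (−0.10 to 0.17), the narrowest interval of any member. A difference of 1.5-fold in Gsdmd between the heart libraries thus lay outside the counting error.

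**Figure D2:**
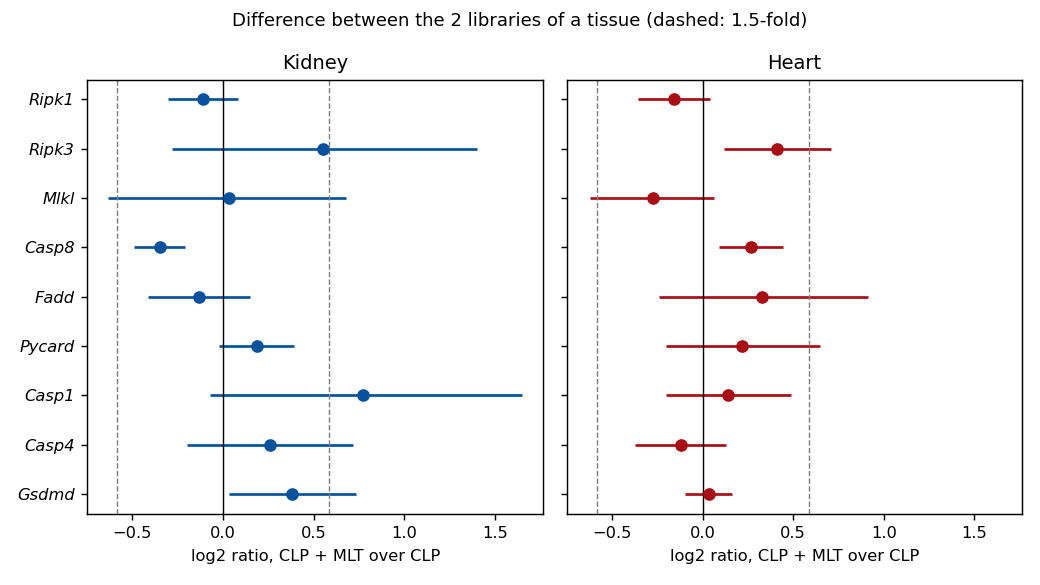
Log2 ratio of CLP + MLT over CLP for the 9 members past the filter on low counts, in kidney (left) and heart (right), with 95% counting intervals; dashed lines mark 1.5-fold either way. Casp8 lies at −0.35 in kidney and 0.27 in heart, and Casp1 in kidney, at 0.77, is the one point beyond a dashed line.

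Differences were counted with the limits of the study's methods, 1.5-fold or more and a p-value no higher than 0.01, the latter from an exact binomial test, which sets 1 library against another and says nothing of the spread between mice. In kidney 0 of the 9 members past the filter met both thresholds, while of the 16932 genes tested 7.65% were higher with melatonin and 7.39% lower, 15.0% together. In heart 0 of 9 met them as well, against 6.86% higher and 8.75% lower among 15871 genes, 15.6% together. On fold change alone, 1 member passed in kidney (Casp1, higher) where 11.0% of all genes were higher and 11.6% lower, and 0 passed in heart where 10.9% and 12.6% did. The intervals of 4 members in kidney (Ripk1, Casp8, Fadd and Pycard) and of 5 in heart (Ripk1, Casp8, Casp1, Casp4 and Gsdmd) lay wholly within 1.5-fold. For the other 5 in kidney and 4 in heart, the interval reached past 1.5-fold, so a difference of that size was neither shown nor excluded. The share of all genes with intervals within 1.5-fold was not counted.

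The median log2 ratio of the 9 members was 0.19 in kidney and 0.14 in heart, beside 0.0029 and 0.0023 for all genes tested. In each tissue 6 of the 9 were higher and 3 lower in the melatonin library, where 50.3% of all genes in kidney and 50.2% in heart were higher. The 4 pyroptosis genes past the filter all had a ratio above 0 in kidney, from 0.19 for Pycard to 0.77 for Casp1. With the libraries scaled by their size only, Pycard went to −0.0091 and the median of the members to −0.0091, while the median of all genes went to −0.19.

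For most members kidney and heart differed far more than the treatments did. Within the CLP libraries, Ripk3 was 11.5-fold, Gsdmd 11.3-fold and Casp1 10.3-fold higher in heart, with log2 ratios of heart over kidney of 3.52 (2.96 to 4.20), 3.50 (3.26 to 3.76) and 3.36 (2.76 to 4.09). Mlkl was 5.58-fold and Casp4 5.27-fold higher in heart. In the CLP + MLT libraries the same 5 genes were higher in heart by 10.8-fold for Ripk3, 9.22-fold for Gsdmd, 6.83-fold for Casp1, 4.65-fold for Mlkl and 4.18-fold for Casp4. The adaptors stood the other way. Fadd stood 3.29-fold higher in kidney without melatonin and 2.31-fold with it, and Pycard 2.81-fold and 2.65-fold.

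Ripk1 was 1.38-fold higher in heart in both treatments, with log2 ratios of 0.46 (0.28 to 0.64) for CLP and 0.46 (0.25 to 0.68) for CLP + MLT. Scaled by library size only, these were 0.033 (−0.15 to 0.21) and 0.24 (0.02 to 0.45), so the size of this difference depended on the scaling. Casp8 stood 1.40-fold higher in kidney without melatonin and 1.14-fold higher in heart for CLP + MLT, with log2 ratios of −0.48 (−0.64 to −0.33) and 0.18 (0.02 to 0.35), and the second one turned to −0.043 when libraries were scaled by size only. With a limit of 2-fold, set after the values were seen, 5 of the 9 members were higher in heart and 2 higher in kidney in either treatment. Among all genes of the CLP comparison 25.1% were at least 2-fold higher in heart and 29.0% in kidney, and 25.8% and 27.5% in the CLP + MLT comparison. Over the scalings tried, the log2 ratio of Gsdmd ran from 3.08 to 3.55 for CLP and from 2.98 to 3.23 for CLP + MLT.

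**Figure D3:**
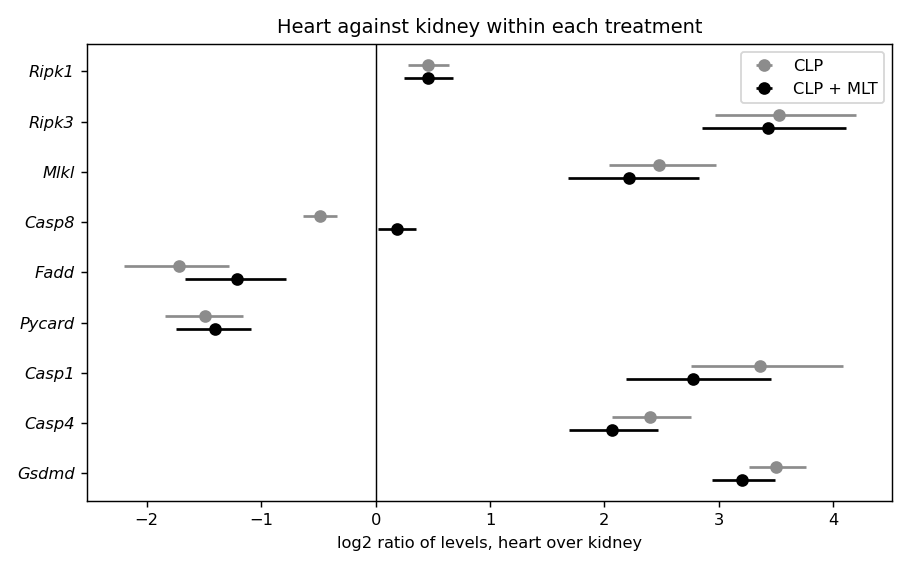
Log2 ratio of the level in heart over that in kidney for 9 members, for the CLP libraries (grey) and the CLP + MLT libraries (black), with 95% counting intervals. Ripk3, Gsdmd, Casp1, Mlkl and Casp4 lie above 2, Fadd and Pycard lie below −1, and Casp8 is at −0.48 in grey and 0.18 in black.

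Ratios between members of one library need no scaling between libraries. Per length, Ripk3 stood at 0.165 of Ripk1 in the CLP kidney library and 0.262 in the CLP + MLT kidney library, and at 1.41 and 2.09 times Ripk1 in the hearts. Casp1 stood at 0.131 and 0.199 of Pycard in the kidneys and at 3.88 and 3.67 times Pycard in the hearts. The ratio of Gsdmd to Casp1 was more alike across tissues, with 4.04 and 3.05 in kidney and 4.38 and 4.06 in heart. Of the counts per kilobase summed over the 10 members, Casp8 took 51.4% in the CLP kidney library and 42.8% in the CLP + MLT kidney library, but 17.4% and 19.8% in the hearts, where Gsdmd took 41.1% and 39.7%. The 5 pyroptosis genes together took 27.2% and 35.3% in kidney and 60.9% and 58.8% in heart.

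**Figure D4:**
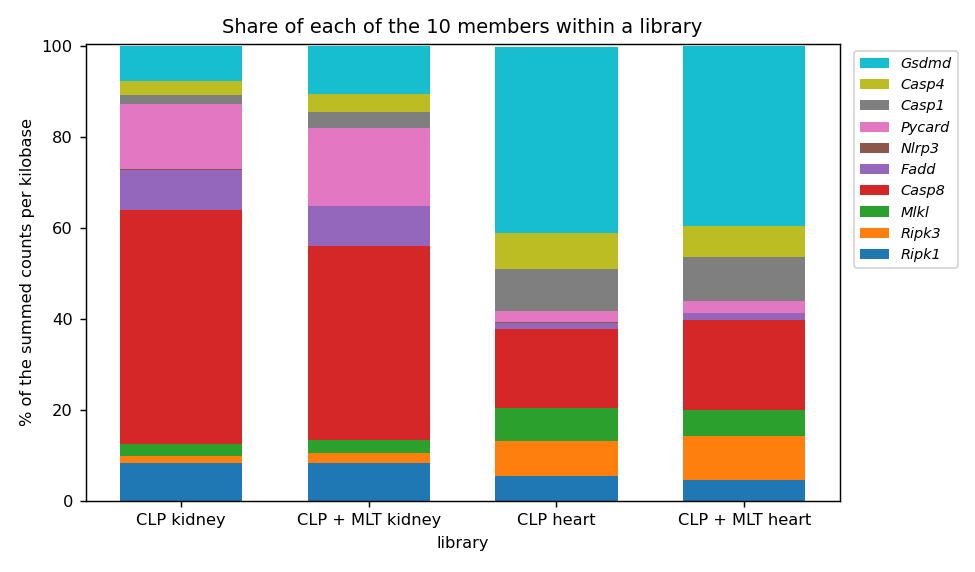
Share of each gene in the counts per kilobase summed over the 10 members, in percent, 1 stacked bar per library. Casp8 fills 51.4% of the CLP kidney bar, and Gsdmd fills 41.1% of the CLP heart bar.

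The members are expressed by several cell types, and in whole tissue more cells of a type cannot be told apart from more RNA per cell. Summed over 15 macrophage and monocyte markers, of which none was at 0, the level was 172 CPM in the CLP kidney, 263 in the CLP + MLT kidney, 346 in the CLP heart and 400 in the CLP + MLT heart. The 8 endothelial markers, none at 0, summed to 328, 276, 1860 and 2190 CPM in that order. The 12 neutrophil markers summed to 21.6, 15.1, 63.0 and 47.7 CPM, with Mpo at 0 in all 4 libraries, Elane in 3, Camp in both hearts and Ltf in the CLP + MLT heart. The 12 lymphocyte markers summed to 2.43 to 2.95 CPM in every library, with Ms4a1 at 0 throughout. Macrophage, endothelial and neutrophil sums were thus higher in heart, as were Ripk3, Gsdmd, Casp1, Mlkl and Casp4, while Fadd and Pycard were lower there. Not every marker followed its sum, as the macrophage marker Cd14 had 787 counts in the CLP kidney and 41 in the CLP heart. Between the kidney libraries, 12 of the 14 macrophage markers past the filter had a ratio above 0, beside 50.3% of all genes. The 4 pyroptosis genes past the filter did too, and none of them met the thresholds. Of those 14 markers 3 met the thresholds as higher and 1 as lower, Cd14 (787 and 69 counts), beside 7.65% and 7.39% of all genes. Csf1r (1140 and 1569) and Lyz2 (552 and 1219), both among the higher, weighed most in the CLP + MLT kidney sum. Between the hearts 7 of 15 had a ratio above 0, beside 50.2% of all genes. There 3 were past the thresholds each way, beside 6.86% higher and 8.75% lower of all genes. Of the 7 neutrophil markers past the filter, 3 met the thresholds as lower and 0 as higher in kidney, and 3 and 0 in heart, beside the same shares. Liver markers, 8 in all and none at 0, summed to 1520 CPM in the CLP kidney and 786 in the CLP + MLT kidney, and to 67.7 and 68.1 in the hearts. Cyp2e1 (25518 and 8536 counts for CLP and CLP + MLT) and Fga (11150 and 459) weighed most in the CLP kidney sum. Between the kidney libraries 3 of these 8 markers had a ratio above 0 and 5 below, with Alb (114 and 71 counts) at −0.01. The part of these cell types in the results was not tested.

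Further genes of the same pathways were read from 5 lists written from general knowledge. Of the 14 genes for death receptors, their ligands and upstream sensors, 12 passed the filter in kidney, and 4 met the thresholds as lower and 0 as higher with melatonin, where 7.39% of all genes were lower and 7.65% higher. With edgeR's exact test and an assumed coefficient of variation between mice of 0.2 this count was 1, Zbp1, and with 0.4 it was 0. The median log2 ratio of the list was −0.41. Zbp1, whose product senses Z-form nucleic acid and calls on RIPK3 directly, had 75 counts for CLP and 10 for CLP + MLT, a log2 ratio of −2.19 (−3.35 to −1.28). The tumour necrosis factor receptor genes Tnfrsf1a (1783 and 598 counts, −0.90) and Tnfrsf1b (63 and 15, −1.38) and the lipopolysaccharide receptor gene Tlr4 (64 and 17, −1.22) were lower too. The products of Zbp1, Tnfrsf1a and Tlr4 can act upstream of RIPK1 or RIPK3. Tnf, with 6 and 11 counts, did not pass the filter.

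In heart 13 of this list passed the filter, with a median of 0.016, and 2 met the thresholds as higher and 2 as lower, beside 6.86% and 8.75% of all genes. With an assumed variation of 0.2 none of the 4 passed, and Tlr4 was lost under 2 other scalings too. Tnf was higher with melatonin, with 15 and 44 counts and a log2 ratio of 1.53 (0.69 to 2.51), as was the TRAIL receptor gene Tnfrsf10b (98 and 180, 0.88). Tnfrsf1b (170 and 104, −0.70) and Tlr4 (94 and 60, −0.63) were lower. Zbp1 had 63 and 60 counts there, a log2 ratio of −0.06 (−0.60 to 0.47).

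All 29 regulators of RIPK1 and caspase-8 passed the filter in both tissues, with medians of −0.061 in kidney and −0.00026 in heart. In kidney 2 of the 29 met the thresholds as lower, where 7.39% of all genes did, and 0 passed with an assumed variation of 0.2. They were Mapkapk2 (2627 and 837 counts, −0.98), a kinase that phosphorylates RIPK1, and Ikbkg (1171 and 465, −0.66), which encodes NEMO of the IKK complex. In heart 1 met them as higher, where 6.86% of all genes did, and 0 with an assumed variation of 0.2. It was Spata2 (94 and 201, 1.10), which tethers the deubiquitinase CYLD to the receptor complex.

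Of the 32 inflammasome sensors and regulators, 24 passed the filter in kidney, with 3 past the thresholds as higher and 4 as lower, beside 7.65% and 7.39% of all genes, and a median of −0.052. These 7 calls came to 2, Nlrp6 and Gbp2, with an assumed variation of 0.2 and to 0 with 0.4. Nlrp6, a sensor with high counts in kidney, had 5908 and 8186 counts and a log2 ratio of 1.14 (1.09 to 1.19). The flagellin sensor Naip5 (34 and 44, 1.03), which has near-identical copies that make its counts uncertain, and the ATP receptor gene P2rx7 (47 and 58, 0.97) were also higher. The interferon-inducible GTPase gene Gbp2 was lower, with 157 and 34 counts and a log2 ratio of −1.53 (−2.12 to −0.99). The other 3 lower ones, named after their values were seen, were Nek7 (1634 and 661 counts), whose product binds NLRP3, Irgm2 (320 and 110) and the transcription factor gene Irf8 (377 and 152). In heart 26 passed the filter, 2 as higher past the thresholds and 0 as lower, beside 6.86% and 8.75% of all genes. With an assumed variation of 0.2 there was 1, and with 0.4 there was 0. They were Irgb10, with 6 and 21 counts and named after its values were seen, and Nlrp6 (93 and 242 counts, 1.39), whose heart level made up 2.92% of its kidney level without melatonin and 3.59% with it. The kidney markers stood in heart at 2.20% and 3.54% of their level in kidney, and their part in the value of Nlrp6 was not tested.

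Of the 26 genes for other gasdermins, membrane rupture and released products, 15 passed the filter in kidney and 14 in heart. In heart 2 were higher and 3 lower past the thresholds, beside 6.86% and 8.75% of all genes, and these 5 came to 2 with an assumed variation of 0.2 and to 0 with 0.4. In kidney, beside 7.65% and 7.39% of all genes, 1 was higher past the thresholds, Gsdmc2 (9 and 46 counts, 2.94), which has near-identical neighbours, and 1 was lower, Il1rn. Il1rn, the gene of the interleukin-1 receptor antagonist, had 20 counts without melatonin and 0 with it in kidney, at least 4.18-fold lower against a floor of 3 counts per library, and is named in kidney because it also met the thresholds in heart, with 49 and 10 counts and a log2 ratio of −2.23 (−3.43 to −1.28). In heart Ninj1, which ruptures the membrane after the pore has formed, was lower (524 and 253 counts, −1.04), as was the membrane repair gene Chmp2a (1701 and 1003, −0.75), and the alarmin gene Il33 was higher (41 and 69, 0.75), as was Gsdmc2 (8 and 30 counts), below the mean of 20 counts set for naming. Il1b, the main product released through the pore, had 46 and 20 counts in kidney, a log2 ratio of −0.52 (−1.37 to 0.26), and 48 and 36 in heart, −0.40 (−1.07 to 0.25). Il18 had 44 and 32 counts in kidney and 19 and 23 in heart, and Gsdme, which encodes another gasdermin, had 743 and 422 in kidney and 98 and 69 in heart. None of these last 3 genes met the thresholds in either tissue.

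All 18 genes of the apoptosis core passed the filter in kidney, where 3 were lower and 0 higher past the thresholds, beside 7.39% and 7.65% of all genes. With an assumed variation of 0.2 this count was 1, Pmaip1, and with 0.4 it was 0. Pmaip1, which encodes the death inducer NOXA, had 313 and 47 counts and a log2 ratio of −2.05 (−2.54 to −1.62). Bid (1372 and 499, −0.79), whose product is cut by caspase-8 to reach the mitochondria, and the survival gene Bcl2l1 (2703 and 984, −0.79) were lower as well. In heart 17 passed, and the 3 calls, beside 15.6% of all genes, were all lost with an assumed variation of 0.2. They were 1 higher, Casp2 (75 and 117, 0.65), and 2 lower, Cycs (2767 and 1577, −0.80) and Endog (478 and 274, −0.79), whose products are mitochondrial proteins.

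**Figure D5:**
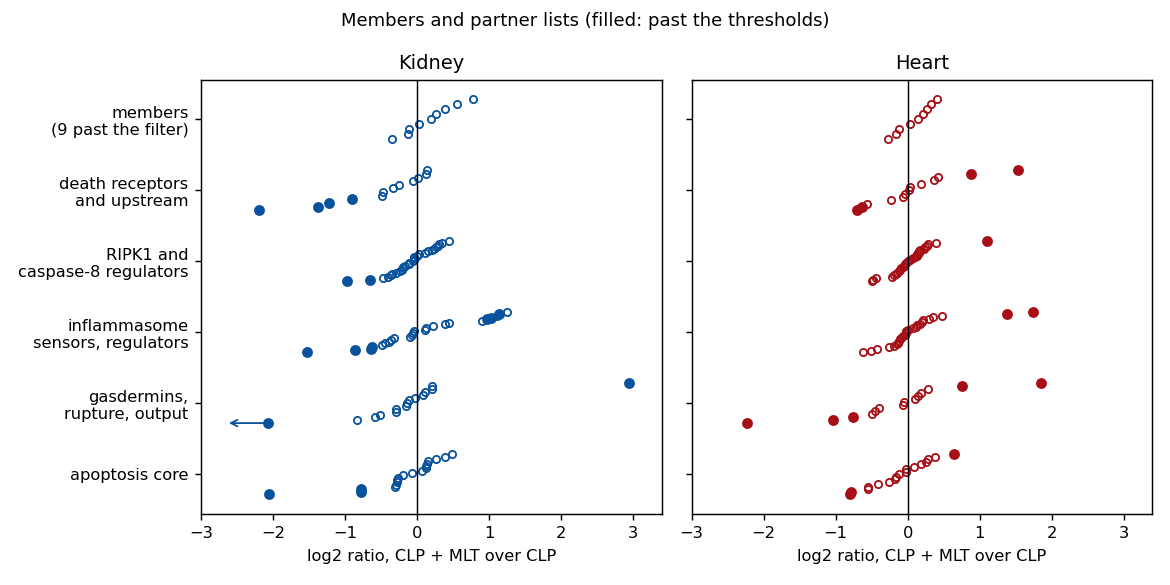
Log2 ratio of CLP + MLT over CLP for the members and for the genes of the 5 pathway lists past the filter on low counts, in kidney (left) and heart (right), 1 point a gene sorted within its list; filled points met the thresholds, and the arrow marks Il1rn, plotted at its bound. No member is filled, while Zbp1 at −2.19 leads the lower side of the death receptor list in kidney.

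The genes most like the members with the largest ratios were sought over 3 values, the ratio in kidney, the ratio in heart and the ratio of heart over kidney, among 11137 genes with at least 50 counts on average in each tissue. Closest to Casp1 were Phldb1 (distance 0.144), Lrrc39 (0.199) and Tmem181b-ps (0.235), and closest to Ripk3 were Gm8995 (0.151), Plcd1 (0.176) and Timeless (0.208), in log2 units. Casp1 and Ripk3 themselves had fewer than 50 counts on average in kidney, so their own place is less certain than these distances.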

How the data were processed

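RNA-seq libraries were made from poly(A) RNA with a kit that does not mark strand. Reads were cleaned by the authors with trim-galore and placed on mm10 by HISAT2 2.1.0, and the authors deposited raw read counts per gene, without normalization. The submitters' processing notes name HTSeq for counting. For its version, strand setting and annotation: not given in the sources used here. The 5 totals that name no gene were left out. Reads on no gene made up 52.1% to 52.6% of the reads placed on a gene or on none.

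From the deposited counts, TMM factors (edgeR 4.0.16, R 4.3.3) were computed within each tissue for the treatment ratios and over all 4 libraries for levels and tissue ratios, on genes averaging 10 counts or more. Log2 ratios used a prior count of 0.5. Intervals were Clopper-Pearson for ratios and exact Poisson for levels, at 95% (scipy 1.17.1, numpy 2.4.6, pandas 2.3.3, Python 3.11.15). The interval of a difference between the tissues' ratios came from the counting variances. The thresholds were met at 1.5-fold or more together with a two-sided exact binomial p-value no higher than 0.01. A single library per group gives no estimate of dispersion. Exon lengths, names and positions came from GENCODE M21 (GRCm38, the build of mm10), which matched 55141 of 55401 identifiers. The procedure was tested on simulated counts that held counting error only. That run could not show how the calls hold against variation between mice. Figures were drawn with matplotlib 3.10.9.

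The members, gene lists and motifs were chosen with earlier results of these data known, and the lists came from general knowledge. Named were all members, up to 4 genes per list and tissue that met the thresholds, averaged 20 counts or more and had the largest ratio, Zbp1, Tnf, Il1b, Il18 and Gsdme in any case, genes overlapping a member, and the 3 genes most like the members with the largest ratios. A further gene that this rule names is not reported here. Elane stands in both the list of released products and that of neutrophils, and Gzma in both the former and that of lymphocytes. Alternatives were other scalings (library size, DESeq2 1.42.0 size factors, upper quartile), other filters, a prior count of 5, a fold change of 2, mitochondrial and haemoglobin genes left out, and edgeR's exact test with an assumed coefficient of variation of 0.2 or 0.4 between mice.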

Additional observations from a re-analysis of the deposited data

Results flagged for a closer look

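Some genes were on opposite sides of 0 in the 2 tissues, lower with melatonin in one and higher in the other. With 1 library per group this difference was not tested, and each value given is the log2 ratio in heart minus that in kidney. Among the members these were Casp8 (0.62), Fadd (0.46), Mlkl (−0.31) and Casp4 (−0.38). Of all genes 50.3% in kidney and 50.2% in heart had a ratio above 0. The share of all genes with opposite signs was not counted, so opposite signs are not read as particular to the members. The counting interval of the difference excluded 0 for Casp8 and included it for Fadd, Mlkl (−1.01 to 0.39) and Casp4 (−0.88 to 0.12).

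Among the pathway genes named, Gbp2 (1.74), Il33 (1.33), Spata2 (1.21), Mapkapk2 (1.16), Bid (1.04) and Ikbkg (0.88) were lower with melatonin in kidney and higher in heart. Endog (−1.19) and Chmp2a (−0.86) were higher in kidney and lower in heart. Each of these 8 met the thresholds in 1 of the tissues and not in the other. They were named for meeting them in a tissue, so this follows in part from the choice. With an assumed variation of 0.2 only Gbp2 still met them, and with 0.4 it did not.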

How the results depend on the processing

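No paired analysis was possible because each group has 1 library and so no group has a second number to pair. The 4 in the names of both melatonin libraries is unexplained, and the CLP names carry no number. The count of members past the thresholds was 0 in both tissues under the other scalings. It was also 0 without a filter on low counts and with mitochondrial and haemoglobin genes left out. A stricter filter, a larger prior count, a higher fold change and edgeR's exact test at either assumed variation gave 0 too. These last settings work to remove calls, so with 0 in the main run their 0 gives no further support. Across the alternatives the median of the members ran from −0.0091 to 0.21 in kidney and from 0.082 to 0.20 in heart. Scaled by library size only, the kidney ratio of Mlkl turned to −0.16, that of Pycard to −0.0091, and the heart over kidney ratio of Casp8 for CLP + MLT to −0.043. The heart over kidney ratio of Ripk1 for CLP went from 0.46 to 0.033. That scaling lowered the median of all kidney genes to −0.19, with 23.4% of calls higher in place of 50.9%, and gave 4 regulators of RIPK1 and caspase-8 past the thresholds in kidney in place of 2. With an assumed variation of 0.2, kidney had 1 death receptor or sensor gene, 0 regulators, 2 inflammasome genes and 1 apoptosis gene, and heart had 0, 0, 1 and 0 of these and 2 of the gasdermin and output list. With 0.4 the count was 0 for each of these lists in both tissues, apart from the gasdermin and output list in kidney, where 2 genes passed under either variation. In heart Tlr4 no longer met both thresholds when scaled by library size (−0.58) or the upper quartile (−0.59), and in kidney Naip5 by library size (0.84). The tissue ratios, the differences between tissues and the further settings for the lists were added after the data were seen. Depth limits Ripk3, Casp1 and Mlkl in kidney and Nlrp3 throughout.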
